A study of Homo sapiens with 24 samples.

Results

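Epithelial-mesenchymal transition (EMT) regulators and markers were followed in human colorectal cancer cells with and without β-CATENIN. The 10 genes were set by name among the 58051 gene identifiers of the data: the EMT transcription factors *ZEB1*, *ZEB2*, *SNAI1* and *SNAI2*, the mesenchymal markers *VIM*, *FN1* and *CDH2*, and the epithelial regulators *ESRP1*, *ESRP2* and *GRHL2*. HT29, HCT116 and SW480 are established colorectal cancer cell lines whose WNT/β-CATENIN pathway is active through mutations in *APC* (HT29, SW480) or in *CTNNB1* itself (HCT116). In each line, 2 WT clones with intact *CTNNB1* were compared with 2 KO clones in which CRISPR/Cas9 had removed exon 7 from both *CTNNB1* alleles, which shifts the reading frame. WT clones had also been exposed to CRISPR/Cas9 and cloned, and every clone is a single isolate. Sequencing was done on independent rounds A and B of all clones, giving 4 libraries per line and genotype and 24 in all, and a library is named by clone and round, as in KO 47A.

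EMT is the process by which epithelial cells give up cell-cell adhesion and apical-basal polarity and take on a migratory, mesenchymal state. ZEB and SNAIL family repressors bind E-box sequences in epithelial genes such as *CDH1* (E-cadherin), whereas GRHL2 activates epithelial genes, and ESRP1 and ESRP2 direct epithelial patterns of alternative splicing. ZEB1 and the miR-200 microRNAs repress each other, and colorectal cancer cell lines are known to differ widely in where they stand between both states.

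Levels are normalized counts, that is, reads per gene divided by 1 size factor per library. Recovered reads per library ran from 22297049 to 29068378, so that 1 read was worth close to 1 normalized count, and a gene with 3 reads or fewer in a library was taken as at the floor (counting error only). Differences are on the log2(normalized count + 1) scale with limma's standard error (SE), and "changed", "rose" and "fell" are used for an adjusted p under 0.05. DEGs had in addition an absolute log2 difference over 1. *CTNNB1*, the targeted gene, fell by 4.33, 5.77 and 5.54 on the log2 scale in KO clones of HT29, HCT116 and SW480, and no KO library (187 to 1312) overlapped a WT library (5883 to 50940). Library KO 47A of HCT116 stood apart with 35449 identifiers above 0, compared to 20256 to 24944 in the other 23 libraries. Of 8 intestinal epithelial genes, *CDX1* had no reads in HT29 WT, in HCT116 or in SW480, and the summed level of the 8 was 9426 to 17013 in HT29 WT, 603 to 809 in HCT116 WT and 870 to 1387 in SW480 WT libraries. The fibroblast genes *DCN* and *POSTN* had 13.9 each in HCT116 KO 47A and at most 3 reads elsewhere, and the leukocyte genes *PTPRC* and *CD3E* at most 4.28 and 6.76. The p-values measure the spread between these libraries, which are 2 rounds of 2 clones and not independent derivations of the lines. In bulk cultures a smaller share of cells with a transcript cannot be told apart from less transcript per cell.

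Promoters from RefSeq (GRCh38.p14; the 250 bases before a start) matched 5 of the 10 genes, in 12 windows. *SNAI1*, *SNAI2*, *ESRP1*, *ESRP2* and *GRHL2* had no entry. Windows were searched on both strands for CACCTG, the E-box of ZEB and SNAIL factors, for CTTTGA and CTTTGT, letters of TCF/LEF sites, and for AACCGG, letters of grainyhead-like sites. CTTTGA and CTTTGT share all letters but the last. CACCTG was found in 17.5%, CTTTGA in 11.2%, CTTTGT in 13.7% and AACCGG in 5.99% of all 35116 windows of this length. Of the 7 *ZEB1* windows, 2 held CACCTG, and the *ZEB2* window held CTTTGT. The windows of *VIM*, *FN1* and *CDH2* held none of the 4. The *ZEB1* window with 2 E-boxes is shown, with these in capitals, together with those of *VIM* and *FN1*, since *ZEB1*, *VIM* and *FN1* are the members with a promoter entry that rose in SW480 KO clones.
ZEB1 promoter, chr10:31318966-31319215, plus strand: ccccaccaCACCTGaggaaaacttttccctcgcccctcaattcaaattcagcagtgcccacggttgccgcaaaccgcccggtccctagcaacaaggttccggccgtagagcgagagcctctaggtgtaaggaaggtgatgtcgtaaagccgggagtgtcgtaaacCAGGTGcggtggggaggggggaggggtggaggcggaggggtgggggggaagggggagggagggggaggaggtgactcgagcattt
VIM promoter, chr10:17227991-17228240, plus strand: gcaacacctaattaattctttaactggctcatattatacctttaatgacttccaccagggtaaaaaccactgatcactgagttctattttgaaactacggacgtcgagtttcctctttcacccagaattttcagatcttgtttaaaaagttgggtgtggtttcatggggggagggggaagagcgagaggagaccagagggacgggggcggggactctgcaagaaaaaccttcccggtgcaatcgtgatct
FN1 promoter, chr2:215436069-215436318, minus strand: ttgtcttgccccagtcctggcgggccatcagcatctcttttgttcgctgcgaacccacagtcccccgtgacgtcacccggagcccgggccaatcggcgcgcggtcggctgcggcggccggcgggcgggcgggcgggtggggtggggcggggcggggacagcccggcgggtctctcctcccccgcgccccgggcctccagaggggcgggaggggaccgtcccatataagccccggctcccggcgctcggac
The 3 windows differ in base composition, with a GC content of 62.4% for *ZEB1*, 46% for *VIM* and 76.4% for *FN1*, compared to a median of 58% over all windows. A match is a description of the letters, and binding was not measured.

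**Figure D1:**
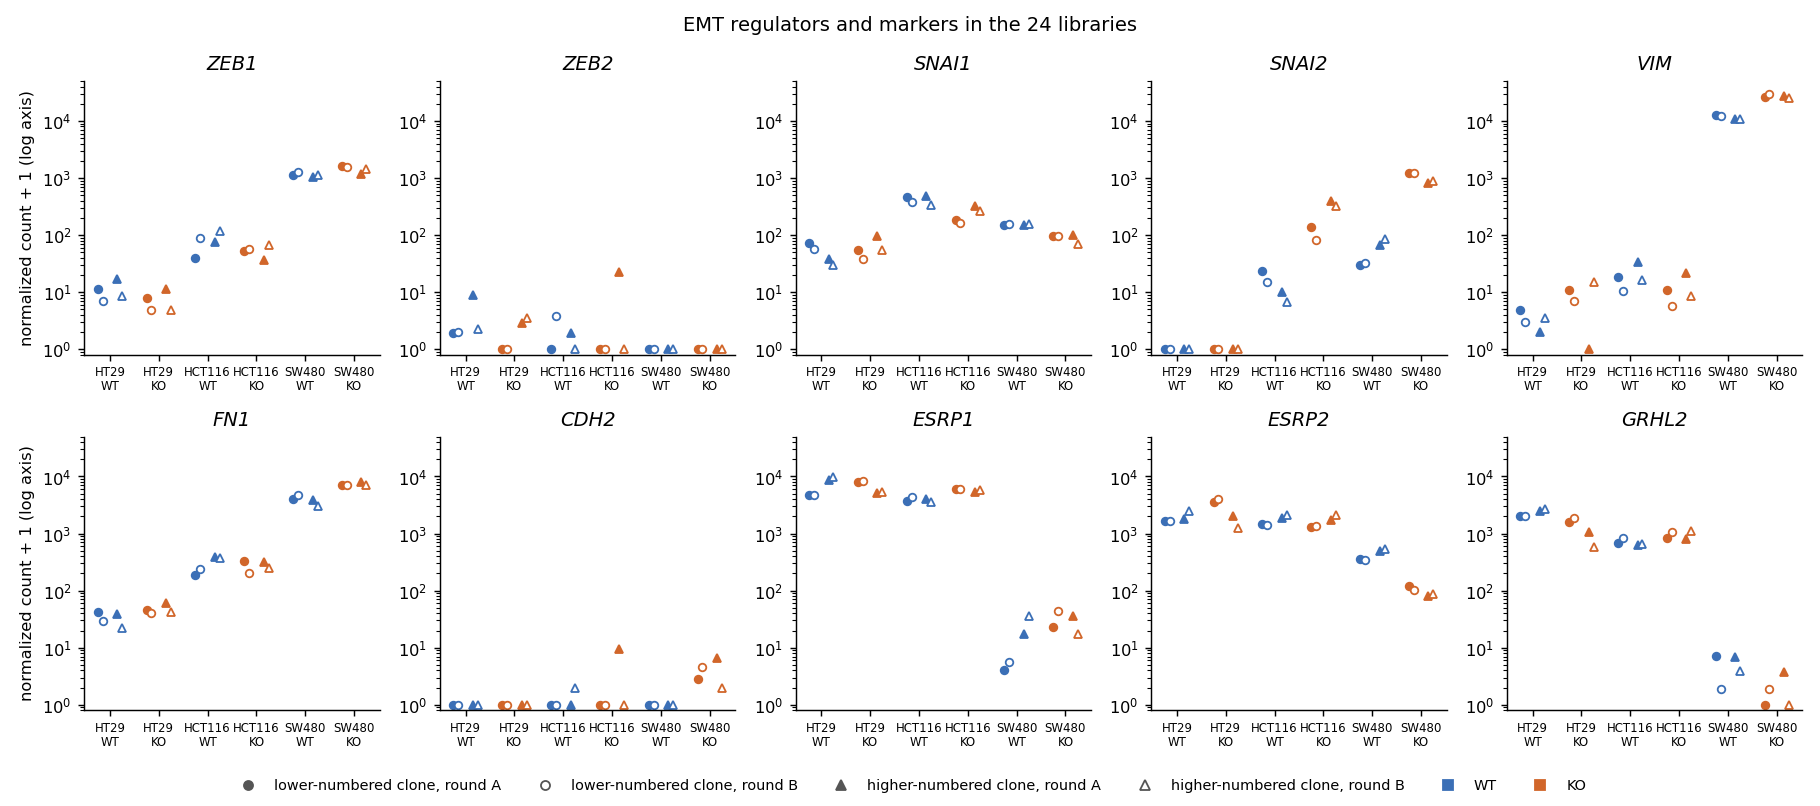
Normalized count plus 1 (log axis) of the 10 genes in each of the 24 libraries, by line and genotype; circles and triangles are the lower- and higher-numbered clone, filled and open symbols are rounds A and B. *VIM*, *ZEB1* and *FN1* were high in SW480, *ESRP1* and *GRHL2* in HT29 and HCT116, and *SNAI2* was at 0 in every HT29 library and higher in KO than in WT libraries of HCT116 and SW480.

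WT clones were compared first, to place the 3 lines. SW480 WT cells had high mesenchymal and low epithelial transcripts, HT29 WT cells the opposite, and HCT116 WT cells kept the epithelial regulators at low but detectable *ZEB1* and with the highest *SNAI1*. Of the 8 genes tested over the 24 libraries (*ZEB2* and *CDH2* were below the filter), 6 were DEGs between HT29 and HCT116, where 37.3% of 18609 genes were, and 8 were DEGs between HT29 and SW480 (40% of all) and between HCT116 and SW480 (39.9% of all). The exceptions between HT29 and HCT116 were *ESRP1* (0.75 ± 0.46, limma, adjusted p = 0.167) and *ESRP2* (0.15 ± 0.28, limma, adjusted p = 0.671). There edgeR and DESeq2 each called 7 of 8, with *ESRP1* in addition. *SNAI2* (0 reads in HT29), *VIM* (1 to 4 reads in HT29 WT) and *GRHL2* (1 to 6 reads in SW480 WT libraries) passed the filter through other lines. Their calls against these lines were thus largely set by the filter, and the sizes depend on the pseudocount.

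*ZEB1*, a zinc-finger repressor (10:31607424-31818742 in GRCh37, plus strand), had 1125, 1255, 1058 and 1108 normalized counts in SW480 WT 4A, 4B, 5A and 5B. In HCT116 WT 4A, 4B, 6A and 6B it had 38.5, 86.3, 74.8 and 118, and in HT29 WT 11A, 11B, 40A and 40B it had 10.6, 6.08, 15.8 and 7.52. The 3 lines did not overlap. The mean of SW480 was 14.3-fold that of HCT116, and HCT116 was 7.95-fold above HT29 (log2 differences of -3.93 ± 0.32 for HCT116 minus SW480 and -2.84 ± 0.32 for HT29 minus HCT116, limma, adjusted p = 3.77e-10 and 7.98e-08). *ZEB1-AS1*, which overlaps *ZEB1* on the other strand, had means of 126 in SW480, 46.4 in HCT116 and 88.9 in HT29 WT cells, a different order. Reads of overlapping genes on opposite strands cannot be told apart with the unstranded kit used.

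*SNAI1* (20:48599517-48605423, plus strand), which codes for the SNAIL repressor, was highest in HCT116 WT cells with 463, 371, 492 and 339 in 4A, 4B, 6A and 6B. SW480 WT 4A, 4B, 5A and 5B held 149, 158, 147 and 157, and HT29 WT 11A, 11B, 40A and 40B held 71.1, 55.8, 36.6 and 28.8. The order HCT116, SW480, HT29 was without overlap, and both steps passed the test (1.43 ± 0.28 for HCT116 minus SW480, limma, adjusted p = 1.32e-04, and -1.73 ± 0.28 for HT29 minus SW480, limma, adjusted p = 1.30e-05). *SNAI2*, which codes for the related repressor SLUG, had means of 52.8 ± 27.0 (SD, n = 4) in SW480 and 12.7 ± 7.05 in HCT116 WT cells. No HT29 library held a *SNAI2* read, and against the floor of 3 reads per library the SW480 WT mean was at least 16.7-fold and the HCT116 WT mean at least 4.03-fold higher. *ZEB2*, the paralog of *ZEB1*, was at 0 in all 8 SW480 libraries, and in HT29 and HCT116 WT libraries it reached 7.9 at most, in HT29 WT 40A.

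*VIM* (10:17270240-17279592, plus strand) encodes vimentin, the intermediate filament of mesenchymal cells, and had the widest range. SW480 WT 4A, 4B, 5A and 5B held 12655, 12256, 10674 and 10921 normalized counts, HCT116 WT libraries between 9.28 and 32.3, and HT29 WT libraries between 0.988 and 3.84. The SW480 mean was 626-fold that of HCT116 (-9.34 ± 0.57 for HCT116 minus SW480, limma, adjusted p = 2.08e-12). HT29 WT libraries held 1 to 4 *VIM* reads, and the fold against them depends on the pseudocount. *FN1* (2:216225163-216300796, minus strand), coding for the matrix protein fibronectin, had 4111, 4640, 3873 and 3003 in SW480 WT, 189, 234, 389 and 368 in HCT116 WT and 41.3, 28.4, 38.5 and 21.3 in HT29 WT libraries. These ranges did not overlap either, and the means were 13.2-fold (SW480 over HCT116) and 9.11-fold (HCT116 over HT29) apart. *CDH2*, coding for N-cadherin, was at 0 in the WT libraries of all 3 lines except for 1 read in HCT116 WT 6B, and was thus not detectable at this depth in SW480 WT cells.

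The epithelial regulators ran the other way. *ESRP1* had 4797, 4656, 8505 and 9825 in HT29 WT 11A, 11B, 40A and 40B, 3790, 4293, 3975 and 3636 in HCT116 WT 4A, 4B, 6A and 6B, and 3.03, 4.59, 16.4 and 34.3 in SW480 WT 4A, 4B, 5A and 5B. The mean of HCT116 was 269-fold that of SW480 (8.50 ± 0.46, limma, adjusted p = 4.10e-13). SW480 WT 4A and 4B held 3 and 5 *ESRP1* reads, so that the size depends on the pseudocount and the clone (7.30 to 9.69 over the alternatives). *GRHL2*, a grainyhead-like transcription factor, had 2038, 2069, 2478 and 2646 in HT29 WT, 682, 841, 641 and 654 in HCT116 WT and 6.06, 0.919, 5.79 and 2.94 in SW480 WT libraries. HT29 exceeded HCT116 by 3.28-fold (1.71 ± 0.41, limma, adjusted p = 0.00104), and SW480 held 1 to 6 reads. *ESRP2* (16:68262936-68272005, minus strand) was less unequal, with 1628 to 2458 in HT29, 1408 to 2098 in HCT116 and 344 to 528 in SW480 WT libraries, a 3.93-fold difference between the means of HCT116 and SW480 (1.98 ± 0.28, limma, adjusted p = 1.71e-06). In SW480 WT cells *ESRP2* was thus the epithelial regulator that remained, at 83.1 normalized counts per kb of exon compared to 2.99 for *ESRP1* and 0.649 for *GRHL2*.

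Levels per kb of exon also ordered the genes within a line by their means. The length covers all annotated exons of a gene and not a single transcript, so that the order is approximate. In SW480 WT cells the order was *VIM* (2246), *FN1* (227), *ZEB1* (131), *SNAI1* (89.4), *ESRP2* (83.1), *SNAI2* (16.1), *ESRP1* (2.99) and *GRHL2* (0.649). In HT29 WT cells it was *ESRP1* (1425), *GRHL2* (381), *ESRP2* (363), *SNAI1* (28.2), *FN1* (1.88), *ZEB1* (1.16) and *VIM* (0.452). Some neighbours overlapped, as *SNAI1* (89.4 ± 3.32, SD, n = 4) and *ESRP2* (83.1 ± 18.4) in SW480 WT libraries. So did *GRHL2* (381 ± 49.9) and *ESRP2* (363 ± 75.2) in HT29 WT libraries. *SNAI1* was the EMT transcription factor with the highest level per kb in HT29 and HCT116 WT cells, and *ZEB1* in SW480 WT cells.

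**Figure D2:**
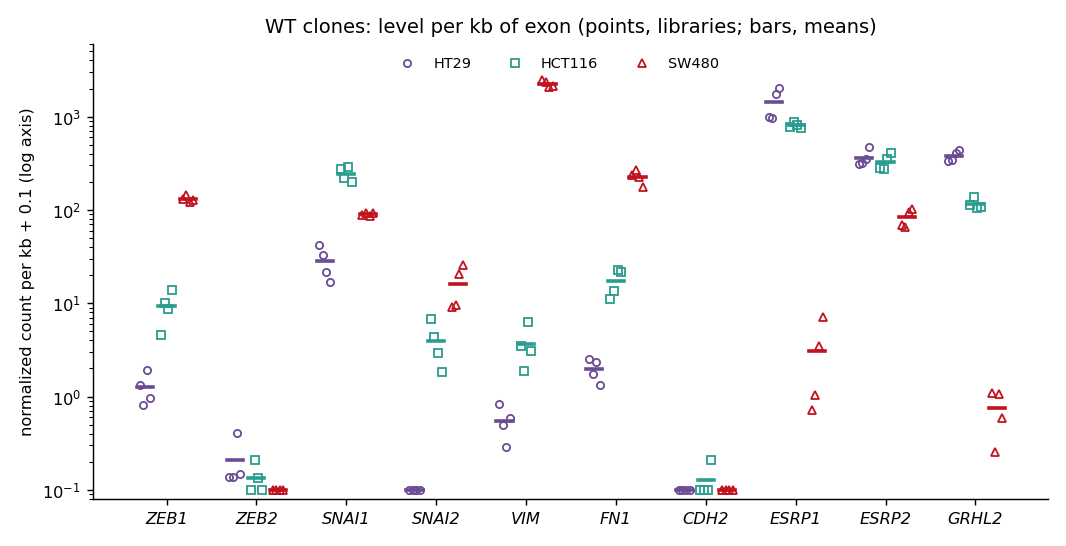
Normalized count per kb of exon plus 0.1 (log axis) of the 10 genes in WT libraries, with points for libraries and bars for means of 4. *VIM* spanned from 0.452 in HT29 to 2246 in SW480, and *ESRP1* from 1425 in HT29 to 2.99 in SW480.

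The comparison of KO with WT clones then asked which of these genes moved when β-CATENIN was absent. In SW480, *SNAI2*, *VIM*, *FN1* and *ZEB1* rose and *ESRP2* and *SNAI1* fell. In HCT116, *SNAI2* and *ESRP1* rose and *SNAI1* fell, with no call for *VIM*, *FN1* or *ZEB1*. In HT29, none of the 5 tested members passed limma's test (1 had an unadjusted p under 0.05, and edgeR and DESeq2 called 0). By count, 6 of 7 tested members changed in SW480, where 48.1% of all tested genes did, 3 of 8 in HCT116 (14% of all) and 0 of 5 in HT29 (2.56% of all). DEGs were 3 of 7 in SW480 (17.5% of all), 1 of 8 in HCT116 (5.06% of all) and 0 of 5 in HT29 (2.3% of all). Members below the filter were *ZEB2* and *CDH2* in each line, *ZEB1*, *SNAI2* and *VIM* in HT29 and *GRHL2* in SW480.

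*SNAI2* had the largest rise of the 10 in both lines where it was tested. In SW480 WT 4A, 4B, 5A and 5B it had 29.3, 31.2, 66.6 and 84.2 normalized counts, and in KO 17A, 17B, 21A and 21B it had 1231, 1243, 807 and 879. The lowest KO library lay far above the highest WT library, and the means differed 19.7-fold (4.39 ± 0.33, limma, adjusted p = 3.54e-06). In HCT116 WT 4A, 4B, 6A and 6B it had 22.0, 13.9, 9.24 and 5.71, and in KO 44A, 44B, 47A and 47B it had 137, 81.0, 389 and 327. Again no library overlapped, with means 18.3-fold apart (3.97 ± 0.52, limma, adjusted p = 6.84e-04). Without KO 47A the HCT116 difference was 3.64 (limma, adjusted p = 0.00194). With 1 value per clone, the mean of both rounds, it had an adjusted p of 0.065 in limma. The levels reached in KO clones were not alike, at 71.1 ± 45.0 normalized counts per kb in HCT116 and 317 ± 70.0 in SW480 (SD, n = 4). In HT29 all 8 libraries had 0 *SNAI2* reads.

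*SNAI1* went the other way in the same clones. HCT116 WT libraries held 463, 371, 492 and 339 and KO libraries 180, 163, 317 and 264, a fall by 0.88 on the log2 scale (SE 0.22, limma, adjusted p = 0.0222) without overlap. SW480 WT libraries held 149, 158, 147 and 157 and KO libraries 95.9, 94.5, 99.9 and 69.1, a fall by 0.77 (SE 0.15, limma, adjusted p = 0.0016), also without overlap. The HCT116 call was lost with the clone as a random effect (adjusted p = 0.062), with 1 value per clone (0.146) and without clone KO 44, where the log2 difference was -0.51 (adjusted p = 0.152), without clone WT 4 (0.0885) or clone WT 6 (0.111) and without library KO 44A, KO 44B or WT 6A (0.0615 to 0.0736), all by limma. In HT29, WT libraries held 71.1, 55.8, 36.6 and 28.8 and KO libraries 54.3, 37.2, 95.8 and 54.5, which overlapped (0.33 ± 0.39, limma, adjusted p = 0.698). SNAIL and SLUG transcripts thus moved in opposite directions in HCT116 and SW480, and in KO cells of SW480 *SNAI2* exceeded *SNAI1* per kb (317 against 52.7), whereas in WT cells it was below (16.1 against 89.4).

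*ZEB1* rose by a small amount in SW480, from 1125, 1255, 1058 and 1108 in WT to 1619, 1540, 1191 and 1415 in KO libraries (0.34 ± 0.10, limma, adjusted p = 0.0195). Library KO 21A lay within the WT range. The call was lost with the clone as a random effect (0.0663), with 1 value per clone (0.147), without clone KO 17 (a log2 difference of 0.19, adjusted p = 0.126) or WT 5 (0.147) and without library KO 17A, KO 17B or WT 5A (0.0512 to 0.0567), all by limma. In HCT116 the WT range of 38.5 to 118 contained 3 of the 4 KO libraries (51.1, 55.6, 35.3 and 66.6; -0.53 ± 0.33, limma, adjusted p = 0.322). In HT29 the gene stayed between 3.89 and 15.8. *ZEB1-AS1* differed by -0.26 ± 0.15 in SW480, 0.34 ± 0.27 in HCT116 and -0.10 ± 0.26 in HT29 (limma, adjusted p = 0.181, 0.438 and 0.869). *ZEB2* was above 3 reads in HT29 WT 40A (7.9 normalized counts) and HCT116 KO 47A (21.4), and 0 in KO 47B, the other round of the latter clone. *ZEB2-AS1* had 2 reads in all, both in KO 47A.

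Mesenchymal markers rose in SW480 KO clones. *VIM* went from 12655, 12256, 10674 and 10921 to 25749, 29059, 27013 and 25328, a 2.3-fold rise with all KO libraries above all WT libraries (1.21 ± 0.08, limma, adjusted p = 6.49e-07). Counts of *VIM-AS1*, on the other strand of the same locus, rose as well, from a mean of 52.6 ± 15.3 to 106 ± 18.9 (SD, n = 4; 1.03 ± 0.23, limma, adjusted p = 0.0039). With the unstranded kit, reads from where both genes overlap cannot be assigned to a strand. A rise of *VIM-AS1* separate from that of *VIM* is therefore not shown. *FN1* went from 4111, 4640, 3873 and 3003 to 7113, 7217, 7996 and 7214, 1.89-fold and again without overlap (0.93 ± 0.12, limma, adjusted p = 9.40e-05). In HCT116, *VIM* libraries overlapped between 17.4, 9.28, 32.3 and 15.2 in WT and 9.83, 4.71, 20.3 and 7.61 in KO clones (-0.79 ± 0.47, limma, adjusted p = 0.294). *FN1* had means of 295 ± 98.7 and 277 ± 60.5 there (SD, n = 4; -0.05 ± 0.25, limma, adjusted p = 0.911). In HT29, *FN1* had 41.3, 28.4, 38.5 and 21.3 in WT and 45.3, 39.1, 60.7 and 41.5 in KO libraries (0.54 ± 0.31, limma, adjusted p = 0.418), and *VIM* reached 14.3 at most. *CDH2* was at 0 in SW480 WT clones and at 1.88, 3.67, 5.6 and 0.96 in KO 17A, 17B, 21A and 21B, or 1 to 6 reads each, which is near the floor. HCT116 KO 47A held 8.56, and the other 3 HCT116 KO libraries 0.

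*ESRP2* fell in SW480 KO clones, from 355, 344, 498 and 528 in WT 4A, 4B, 5A and 5B to 120, 102, 78.4 and 87.4 in KO 17A, 17B, 21A and 21B. The WT mean was 4.45-fold the KO mean with no overlap (-2.13 ± 0.19, limma, adjusted p = 6.39e-06). *NFATC3*, which overlaps *ESRP2* on the other strand, had a mean of 571 over the 24 libraries. In HCT116, *ESRP2* had 1445, 1408, 1834 and 2098 in WT and 1308, 1328, 1722 and 2099 in KO libraries, which overlapped almost entirely (-0.08 ± 0.18, limma, adjusted p = 0.806). In HT29 it had 1628, 1650, 1800 and 2458 in WT and 3611, 4001, 2032 and 1229 in KO libraries, with clone KO 28 above and clone KO 38 around the WT clones (0.40 ± 0.36, limma, adjusted p = 0.604). Without clone KO 38 the difference was 1.03 (limma, adjusted p = 0.0263), and without clone KO 28 it was -0.23 (limma, adjusted p = 0.604).

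*ESRP1* rose in HCT116 KO clones, from 3790, 4293, 3975 and 3636 to 6062, 5934, 5285 and 5713, 1.47-fold without overlap (0.55 ± 0.09, limma, adjusted p = 0.0026; 0.087 with 1 value per clone). In SW480 the gene stayed low, at 3.03, 4.59, 16.4 and 34.3 in WT and 21.6, 42.2, 35.5 and 16.3 in KO libraries. The difference of 1.37 ± 0.65 did not pass (limma, adjusted p = 0.107), but without clone WT 5 it was 2.56 (adjusted p = 0.0028) and without library WT 5B 1.94 (adjusted p = 0.0167). Without clone WT 5, the WT group is clone WT 4 alone, with 3 and 5 reads. The value of 2.56 thus depends on the pseudocount. In HT29, the clones of 1 genotype were further apart than the genotypes (-0.01 ± 0.29, limma, adjusted p = 0.991).

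*GRHL2* was lower in every HT29 KO library (1611, 1895, 1071 and 591) than in every WT library (2038, 2069, 2478 and 2646). The difference of -0.96 ± 0.34 did not pass after adjustment (limma, adjusted p = 0.198), and without clone KO 28 it was -1.53 (adjusted p = 0.0289). In HCT116 it had 682, 841, 641 and 654 in WT and 825, 1060, 790 and 1125 in KO libraries (0.42 ± 0.15, limma, adjusted p = 0.0798). With the round as a replicate block, which paired the libraries in HCT116, the adjusted p was 0.0349, and it was 0.0382 in DESeq2. In SW480 the gene was at 0 to 6 reads in both genotypes, and no fold is given.

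**Figure D3:**
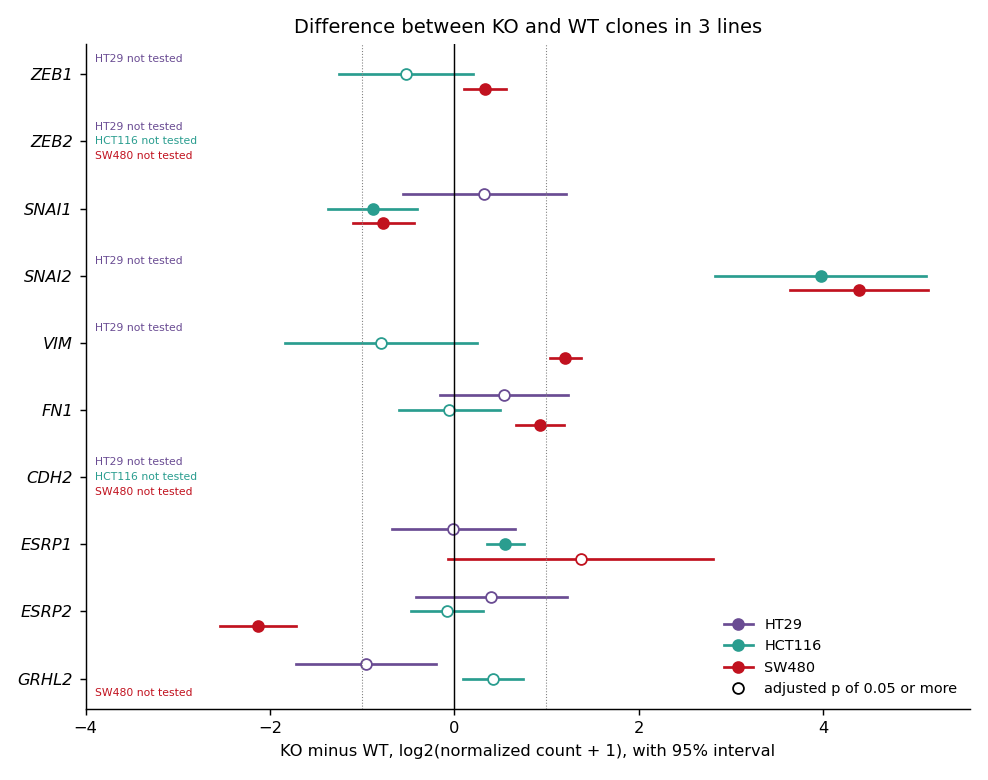
Difference between KO and WT clones on the log2(normalized count + 1) scale, with limma's 95% interval, for the members tested in each line; filled points had an adjusted p under 0.05 and dotted lines mark a difference of 1. *SNAI2* lay at 3.97 in HCT116 and 4.39 in SW480, *SNAI1* at -0.88 and -0.77, and *ESRP2* at -2.13 in SW480.

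Whether the KO effect differed between lines was tested in 1 fit over the 24 libraries. Between HT29 and HCT116, limma called 1 of 8 members, *SNAI2* (7.25% of all genes), whereas edgeR called 0 and DESeq2 3. Between HT29 and SW480, limma called 2 of 8, *SNAI2* and *ESRP2* (15.8% of all genes), edgeR 1 and DESeq2 3. Between HCT116 and SW480, limma called 3 of 8, *ESRP2*, *GRHL2* and *FN1* (13.2% of all genes). There edgeR called 3, *ESRP2*, *FN1* and *VIM*, but not *GRHL2*, and DESeq2 called all 4 of these. The calls of *SNAI2* and *GRHL2* rest on a line where the gene was below the filter, with 0 *SNAI2* reads in all 8 HT29 libraries and 0 to 6 *GRHL2* reads in SW480, so that their size depends on the pseudocount and they are no measure of a difference between lines. The *ESRP2* effect of SW480 lay below that of HT29 by 2.53 ± 0.39 (limma, adjusted p = 6.53e-05) and below that of HCT116 by 2.05 ± 0.39 (limma, adjusted p = 7.66e-04; 0.105 with 1 value per clone). The *SNAI2* effects of HCT116 and SW480 did not differ by test (-0.42, 95% interval -1.69 to 0.86, limma, adjusted p = 0.748). Against HT29, the adjusted p of *SNAI2* was 1 in edgeR and 0.0727 in DESeq2 for HCT116, and 0.9999 in edgeR and 0.0441 in DESeq2 for SW480. The *FN1* difference between HCT116 and SW480 (-0.99 ± 0.33, limma, adjusted p = 0.0499) was lost in 24 of 34 alternatives. That of *GRHL2* (1.83 ± 0.58, limma, adjusted p = 0.0377) was lost in 21 of 33, and with a pseudocount of 5 it was 0.99 (adjusted p = 0.0914). The *VIM* effects of HCT116 and SW480 differed by -1.999 ± 0.80, which did not pass in limma (adjusted p = 0.112). It passed at a like size in edgeR (-2.02, adjusted p = 0.0123), in DESeq2 (-2.03, adjusted p = 4.71e-04) and in limma with a pseudocount of 5 (-1.80, adjusted p = 0.00895). For *SNAI1* the differences of HT29 from HCT116 and SW480 were 1.21 ± 0.40 and 1.10 ± 0.40 (limma, adjusted p = 0.0672 and 0.0648), which DESeq2 called (adjusted p = 0.0349 and 0.0436). Between HT29 and HCT116, DESeq2 also called *VIM* (2.45, adjusted p = 0.0142) and *GRHL2* (-1.27, adjusted p = 0.0195). *VIM* was below the filter in HT29, with 1 to 4 reads in WT and 0 to 11 in KO libraries. Its call is thus no measure of a difference between lines either, and limma gave 1.67 (adjusted p = 0.234).

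Clones of the same genotype were compared in turn, because each is a single isolate. Of the 5 members tested in HT29, 3 were the epithelial regulators, and these 3 were called between the KO clones. Only *ESRP1* was called between the WT clones. *ESRP2* (-0.36, limma, adjusted p = 0.526) and *GRHL2* (-0.32, limma, adjusted p = 0.601) were not. *ESRP1* was at 4797 and 4656 in WT 11 and at 8505 and 9825 in WT 40 (-0.95 ± 0.16, limma, adjusted p = 0.0098), 1 of 5 members called where 9.02% of all genes were. This call was lost without any 1 of the 4 libraries (limma, adjusted p = 0.055 to 0.108). Among HT29 KO clones, *ESRP2* was at 3611 and 4001 in KO 28 and at 2032 and 1229 in KO 38 (1.27 ± 0.27, limma, adjusted p = 0.0184), *GRHL2* at 1611 and 1895 against 1071 and 591 (1.13 ± 0.27, limma, adjusted p = 0.0298) and *ESRP1* at 8064 and 8210 against 5232 and 5238 (0.64 ± 0.16, limma, adjusted p = 0.0332). All 3 were lower in KO 38, and 3 of 5 members were called where 16% of all genes were. Without library KO 28A or KO 28B none of these 3 calls held (limma, adjusted p = 0.102 to 0.229). *CDH1* had 17544 and 18417 in KO 28 and 7339 and 5859 in KO 38.

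In HCT116, none of 8 members differed between WT 4 and WT 6 in limma (2.61% of all genes did, and 3 members had an unadjusted p under 0.05; edgeR called 0 and DESeq2 1). With the round as a replicate block, *SNAI2* (1.16, adjusted p = 0.0098), *FN1* (-0.85, adjusted p = 0.0077) and *ESRP2* (-0.46, adjusted p = 0.0088) were called, and DEGs over all genes rose from 222 to 424. Between KO 44 and KO 47, 2 of 8 members differed (7.16% of all genes). *SNAI2* was lower in KO 44 (137 and 81.0) than in KO 47 (389 and 327; -1.75 ± 0.37, limma, adjusted p = 0.0182), and the call was lost without library KO 47A (-1.63, limma, adjusted p = 0.0608) or KO 44B (-1.38, limma, adjusted p = 0.156). *ESRP2* was lower in KO 44 as well (-0.53 ± 0.13, limma, adjusted p = 0.0403), a call lost without KO 44A, KO 44B or KO 47B (0.173 to 0.195), and *SNAI1* differed by -0.75 ± 0.21 (limma, adjusted p = 0.0616, and 0.0016 with the replicate block).

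In SW480, 3 of 7 members differed between WT 4 and WT 5 (8.88% of all genes). *SNAI2* (29.3 and 31.2 against 66.6 and 84.2; -1.28 ± 0.15, limma, adjusted p = 3.93e-05), *ESRP1* (3.03 and 4.59 against 16.4 and 34.3; -2.38 ± 0.49, limma, adjusted p = 0.0047) and *ESRP2* (355 and 344 against 498 and 528; -0.55 ± 0.15, limma, adjusted p = 0.0253) were each higher in WT 5. The *ESRP1* call was lost without WT 5B (limma, adjusted p = 0.0862) and the *ESRP2* call without any 1 of the 4 libraries (0.0862 to 0.168). WT 4 held 3 and 5 *ESRP1* reads, so that the size of this difference depends on the pseudocount. *CDH1* was also higher in WT 5, with 20.2 and 34.0 in WT 4 and 85.9 and 82.2 in WT 5. *FN1*, at 4111 and 4640 in WT 4 and 3873 and 3003 in WT 5, was just above the threshold (0.36, limma, adjusted p = 0.0531). It gained the call in 5 of 12 alternatives. Between KO 17 and KO 21, *SNAI2* (0.55 ± 0.15), *ZEB1* (0.28 ± 0.09) and *ESRP2* (0.42 ± 0.15) were higher in KO 17 (limma, adjusted p = 0.0101, 0.0312 and 0.0456), 3 of 7 members with 28% of all genes. The calls of *SNAI2* and *ZEB1* were each lost without KO 17A, KO 17B or KO 21A (limma, adjusted p = 0.0794 to 0.0933 and 0.0857 to 0.322). That of *ESRP2* was lost without KO 17A or KO 21A (0.285 and 0.206), with the looser filter (0.0767), in edgeR with RLE factors (0.053) and in DESeq2 (0.0926). *VIM* differed by 0.06 ± 0.07 between these clones (limma, adjusted p = 0.54).

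**Figure D4:**
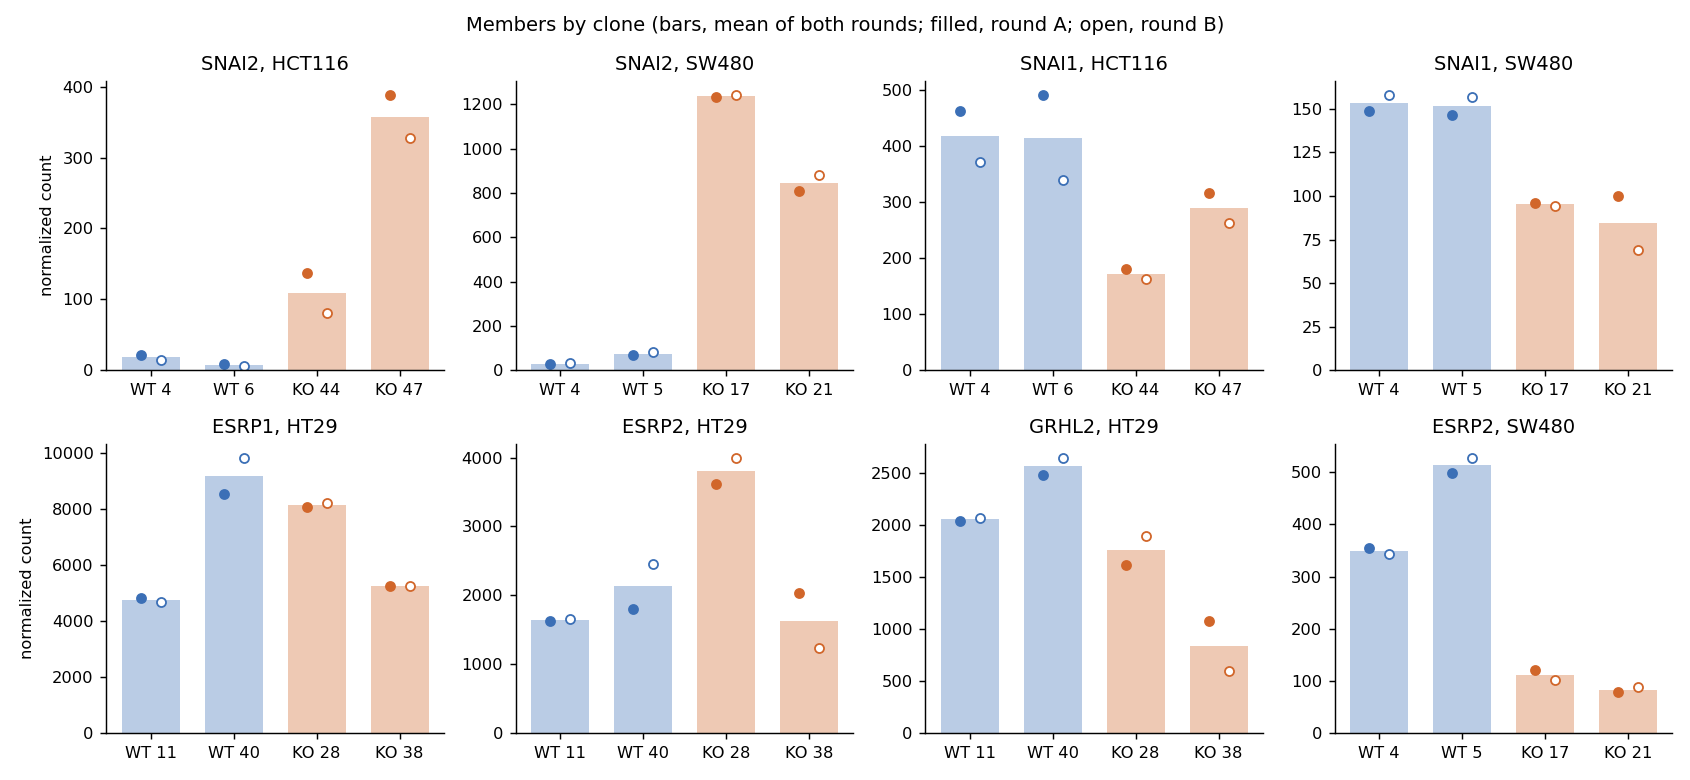
Normalized counts by clone (bars, mean of both rounds; filled and open points, rounds A and B) of *SNAI2* and *SNAI1* in HCT116 and SW480, of *ESRP1*, *ESRP2* and *GRHL2* in HT29 and of *ESRP2* in SW480. Both KO clones of HCT116 and SW480 lay above both WT clones for *SNAI2* (HCT116 KO 44 at 109 and KO 47 at 358). In HT29, *ESRP2* was at 3806 in KO 28 and 1630 in KO 38, and at 1639 in WT 11 and 2129 in WT 40.

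The wider EMT program was described with lists of other genes, whose counts are to be read against the 48.1% of all tested genes that changed in SW480, 14% in HCT116 and 2.56% in HT29. These shares hold rises and falls together. They compare with both counts of a list and not with its rises alone. In SW480 KO clones, 17 of 28 tested mesenchymal genes rose and 3 fell, with a median log2 difference of 0.75 compared to -0.0042 over all tested genes. *NT5E*, which codes for the surface enzyme CD73, went from 896 ± 185 to 29133 ± 3642 (SD, n = 4; 5.04 ± 0.14, limma, adjusted p = 3.50e-09), and *ITGB3*, coding for integrin β3, from 1.96 ± 0.863 to 145 ± 20.1 (5.66 ± 0.27, limma, adjusted p = 9.33e-08). In WT clones *ITGB3* was near the floor, and it passed the filter through KO libraries, so that the size of its difference depends on the pseudocount. In HCT116, 7 of 22 rose and 15 did not pass (median 0.26 compared to -0.01). *NT5E* rose there from 2102 ± 210 to 11287 ± 286 (2.43 ± 0.09, limma, adjusted p = 6.93e-08) and *LOXL2*, a lysyl oxidase-like enzyme, from 312 ± 109 to 1520 ± 886 (2.17 ± 0.40, limma, adjusted p = 0.0082). In HT29, *TGFBI*, coding for a secreted matrix protein, fell from 1941 ± 416 to 96.6 ± 25.7 (-4.33 ± 0.24, limma, adjusted p = 6.64e-05), and the other 15 of 16 did not pass.

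Other EMT transcription factors were mixed. In SW480 KO clones 2 of 7 rose and 3 fell, where 48.1% of all genes changed. *HMGA2*, an architectural chromatin factor, rose from 1782 ± 295 to 5723 ± 220 (1.70 ± 0.11, limma, adjusted p = 6.75e-07). The forkhead factor *FOXQ1* fell from 4603 ± 210 to 434 ± 337 (-3.84 ± 0.58, limma, adjusted p = 7.60e-04) and the homeobox factor *PRRX2* from 85.6 ± 27.8 to 16.4 ± 2.49 (-2.27 ± 0.26, limma, adjusted p = 4.37e-05). In HCT116, *TCF3* was the 1 of 7 that changed (-0.56, limma, adjusted p = 0.0013), and it was named after its value was seen. In HT29, 0 of 6 passed in limma, and 0 had an unadjusted p under 0.05.

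Of 31 epithelial junction and surface genes, 15 rose in HCT116 KO clones and 16 did not pass, where 14% of all genes changed (median 0.45 compared to -0.01). *CDH1* (E-cadherin) had 1616, 1655, 1472 and 1181 in WT and 3278, 3534, 2805 and 3674 in KO libraries, a difference of 1.17 ± 0.13 (limma, adjusted p = 1.97e-04) without overlap. *CLDN4*, coding for a tight-junction claudin, rose from 2143 ± 626 to 4633 ± 849 (1.14 ± 0.20, limma, adjusted p = 0.0039). In SW480, 9 of 25 rose and 7 fell, where 48.1% of all genes changed (median -0.14). *CLDN7* (42.8 ± 24.2 to 222 ± 78.2) and the protease inhibitor gene *SPINT1* (738 ± 276 to 2854 ± 1009) rose, and *OCLN*, coding for occludin (108 ± 19.6 to 22.8 ± 5.46), and *DSP*, coding for desmoplakin (7458 ± 625 to 3504 ± 213), fell. *CDH1* stayed at 20.2, 34.0, 85.9 and 82.2 in SW480 WT and 55.5, 45.9, 45.8 and 28.8 in KO libraries (-0.14 ± 0.44, limma, adjusted p = 0.822). In HT29, *KRT19*, an epithelial keratin, was the 1 of 31 that rose, from 24065 ± 1541 to 71887 ± 19375 (1.54 ± 0.20, limma, adjusted p = 0.0054), and *CDH1* differed by 0.47 ± 0.42 (limma, adjusted p = 0.597).

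Other epithelial transcription and splicing regulators included the ETS factor *ELF3*, which rose from 587 ± 147 to 3297 ± 662 in HCT116 (2.50 ± 0.20, limma, adjusted p = 1.29e-05) and from 53.7 ± 3.36 to 614 ± 9.86 in SW480 (3.49 ± 0.10, limma, adjusted p = 3.58e-09). In HCT116, 5 of 13 rose, *FOXA1* among them (1.81 ± 0.30), and 1 fell, the ETS factor *EHF*, from 1015 ± 358 to 4.39 ± 2.88 (-7.65 ± 0.39, limma, adjusted p = 5.77e-07). The KO level of *EHF* was near the floor, so that the size of its fall depends on the pseudocount. In SW480, 4 of 11 rose and 4 fell, where 48.1% of all genes changed. *KLF4* rose from 223 ± 37.7 to 1242 ± 45.9, and *GRHL1*, a paralog of *GRHL2*, fell from 212 ± 15.7 to 77.5 ± 19.0, as did *KLF5* from 2947 ± 618 to 1129 ± 227. In HT29, 0 of 14 passed in limma, and 3 had an unadjusted p under 0.05. Of 9 splicing partners and genes spliced under ESRP control, 6 rose and 2 fell in SW480: *ENAH* rose by 2.52 ± 0.12, *CD44* by 1.30 ± 0.10, and *FGFR2* went from 81.6 ± 11.6 to 10.4 ± 6.33 (-3.05 ± 0.40; limma, adjusted p = 8.98e-08, 2.71e-06 and 1.17e-04). *CD44* rose in HCT116 also (1.25 ± 0.16, limma, adjusted p = 4.98e-04), where 2 of 9 rose and 1 fell. Gene-level counts do not show which exons were used.

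The transcript of *MIR200CHG*, the host of miR-200c and miR-141, was counted too. It had 18.2, 16.2, 13.8 and 17.5 normalized counts in HT29 WT, 41.3, 15.8, 19.4 and 17.1 in HCT116 WT and 3.03, 2.76, 1.93 and 4.89 in SW480 WT libraries. HT29 and HCT116 exceeded SW480 (2.111 ± 0.41 and 2.49 ± 0.41, limma, adjusted p = 1.23e-04 and 1.64e-05). The SW480 WT values were near the floor, so that both sizes depend on the pseudocount, and no KO difference is given for SW480. The KO difference was 1.08 ± 0.35 in HT29 (limma, adjusted p = 0.170) and 0.25 ± 0.37 in HCT116 (limma, adjusted p = 0.704). The mature microRNAs, which were not measured by this poly(A)-selected assay, are shown from RefSeq (GRCh38.p14) with the seed, bases 2 to 8, in capitals, since they are the known repressors of *ZEB1* and *ZEB2*.
hsa-miR-200c-3p, chr12:6963742-6963764, plus strand: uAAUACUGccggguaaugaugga
hsa-miR-141-3p, chr12:6964155-6964176, plus strand: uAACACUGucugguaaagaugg
The seeds of both differ, and miR-200c shares its seed with miR-200b and miR-429, miR-141 with miR-200a.

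Markers of other cells and of intestinal identity moved with genotype in part, and their part in the results above was not tested. The summed level of the 8 intestinal genes was 9426 to 17013 in HT29 WT and 45278 to 61557 in HT29 KO libraries, with 3 of 6 tested genes rising, *KRT20* from 3669 ± 2192 to 16524 ± 4968 and *CDH17* from 0.981 ± 1.40 to 234 ± 248. In SW480 it was 870 to 1387 in WT and 72.5 to 192 in KO libraries, where *CDX2* fell from 1097 ± 263 to 106 ± 55.8. In HCT116 it was 603 to 809 and 429 to 484, and *KRT20* fell from 77.8 ± 19.2 to 0.484 ± 0.558. Of 8 fibroblast genes, *LUM* was at 0 in HT29 WT and at 82.5, 108, 1125 and 1111 in KO 28A, 28B, 38A and 38B, whereas *DCN*, *PDGFRA* and *POSTN* were at 0 in all HT29 KO libraries. *COL1A2* fell in SW480, from 81.7 ± 37.7 to 0.465 ± 0.536. The summed fibroblast level was 14.2 to 26.9 in HT29 WT and 109 to 1212 in KO libraries, 289 to 443 and 327 to 419 in HCT116, and 215 to 565 and 244 to 294 in SW480. Of 5 leukocyte and endothelial genes, *VWF* (20.2 ± 8.69 to 161 ± 54.5) and *CD14* (37.4 ± 6.92 to 172 ± 28.4) rose in SW480 KO clones, where *CD3E* was at 0 (0.919 to 6.76 in WT). The sum of the 5 was 50.2 to 76.8 in SW480 WT and 266 to 410 in KO libraries, 19.3 to 324 and 92.0 to 187 in HT29, and 5.57 to 16.2 and 3.77 to 49.2 in HCT116.

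Genes with the pattern most like 4 of the members were sought by the root mean square difference of centred log2 levels over the 12 clones, among 13055 other genes with a mean of at least 50. For *ZEB1* they were *FN1* (0.44), *FAM50B* (0.49) and *CASS4* (0.53). For *VIM* they were *SPARC* (0.66), *CLSTN2* (0.91) and *GNG11* (0.93). For *ESRP1* they were *MCTP2* (0.67), *RNF135* (0.78) and *TMEM144* (0.80), and for *GRHL2* *PLA2G4A* (0.58), *OVOL1* (0.63) and *CBLC* (0.70). *SPARC* had means of 0.249, 2.24 and 5534 in HT29, HCT116 and SW480, and *OVOL1* of 431, 220 and 0.375. The 12 clones come from 3 lines that lie far apart for these genes, so that a match mostly reflects levels of the lines. Likeness between clones within a line was not tested. *SPARC*, *CLSTN2* (0.448, 2.24 and 4761), *GNG11* (0.621, 0.785 and 2535), *FAM50B* (0.157, 13.5 and 256) and *CASS4* (1.36, 10.0 and 403) reached the mean of 50 through SW480 alone.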

How the data were processed

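RNA-seq libraries (TruSeq v2, unstranded) of 24 cultures were processed by the authors with STAR 2.7.5b, featureCounts 2.0.1 and DESeq2 2.11.40.6 on GRCh37; the annotation release was not given in the sources used here. The deposited signal is the count per gene divided by a size factor, from which whole reads were recovered for 100% of values within 0.01 of a whole number. Deposited tables with the authors' fold changes and p-values per line were not used. Of 58051 identifiers, 95.8% had a symbol, and 135 of 136 listed symbols matched. Depth was 22297049 to 29068378 reads. limma 3.58.1 (R 4.3.3, trended, robust) was fitted to log2(value + 1) of genes with at least 10 in at least 4 libraries: within a line for KO against WT and for clones, and over the 24 libraries for lines and KO effects. Benjamini-Hochberg adjustment covered all genes tested. Alternatives were edgeR 4.0.16 and DESeq2 1.42.0 on the recovered reads, other pseudocounts and filters, the clone as random effect or mean, the round as replicate block, and leaving out libraries or clones. Scripts were tested on simulated data. Rounds paired the libraries in HCT116 (r of 0.182 to 0.374, 6 of 6 pairs over 0.1), not in HT29 (2 of 6) or SW480 (1 of 6). The members and lists were chosen with earlier results of these data known. Beside the 10 members, *CDH1* and the antisense loci, the genes named from each list were up to 2 called genes with the largest rise and 2 with the largest fall per line that had a mean of at least 50 in the higher group, and marker genes at or near 0 were named after their values were seen.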

Additional observations from a re-analysis of the deposited data

Results flagged for a closer look

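Single libraries stood apart in 4 groups of 4 by Dixon's criterion, which chance alone also meets now and then. *ZEB2* had 7.90 normalized counts in HT29 WT 40A and 21.4 in HCT116 KO 47A, and *CDH2* had 8.56 in HCT116 KO 47A, the library with the most identifiers above 0. *FN1* had 7996 in SW480 KO 21A, above 7113 to 7217 in the other 3 KO libraries.

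The KO effect differed between lines in limma for 6 results. For *SNAI2* it was -3.97 for HT29 minus HCT116 and -4.39 for HT29 minus SW480, with 0 reads in HT29, and edgeR and DESeq2 did not call the difference from HCT116. For *ESRP2* it was 2.53 for HT29 minus SW480 and 2.05 for HCT116 minus SW480. For HCT116 minus SW480 it was also -0.99 for *FN1* and 1.83 for *GRHL2*, which in SW480 had at most 6 reads, so that its value depends on the pseudocount. No cause of these differences was tested.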

How the results depend on the processing

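Of 2214 alternative values of the members, 2003 kept direction and side of the threshold, 101 lost and 48 gained the call, and 62 changed sign. The calls of *SNAI1*, *SNAI2*, *VIM*, *FN1* and *ESRP2* in SW480 held in all 22 alternatives. With 2 clones per group, 1 value per clone leaves little to estimate the spread. The causes of the changes below were not tested, except that a stricter filter tests fewer genes.

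DEG counts with at least 10 in every library were 212 in HT29 (343 as reported) and 1833 in SW480 (2852), 526, 903 and 705 for KO effects (1003, 2291 and 1866), 2956, 3046 and 3197 between WT lines (6937, 7450 and 7434), and 720, 196 and 456 between clones of HT29 WT (1131), SW480 WT (322) and SW480 KO (752). DESeq2 gave 784 in HT29. The round as replicate block gave 217 in HT29, where the rounds did not pair the libraries, and 424 between HCT116 WT clones (222); it changed no member's call but those given with the results. The clone as random effect gave 121 in HT29 and 433, 1399 and 1095 for KO effects. One value per clone gave 0 in HT29 (limma, 849 at an unadjusted p under 0.05; edgeR 295 and DESeq2 784 on single libraries), 358 in HCT116 (779) and 97, 764 and 602 for KO effects.

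Leaving out 1 library or clone gave 115 to 583 in HT29, 689 to 2432 and 1619 to 3671 for KO effects of HT29 against HCT116 and SW480, 414 to 463 and 712 to 4760 between HT29 WT and KO clones, and 89 to 128 and 337 to 640 between HCT116 WT and KO clones.

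Signs changed only in results that were not called. With a pseudocount of 5, the KO effect difference of *ZEB1* (HT29 minus HCT116) was 0.10 and of *GRHL2* (HT29 minus SW480) -0.39. That of *VIM* (HT29 minus SW480) was 0.34, 0.35 and 0.42 with edgeR TMM, edgeR RLE and DESeq2. Leaving out 1 library or clone, KO minus WT ranged in HT29 from -0.14 to 0.79 for *SNAI1*, -0.49 to 0.47 for *ESRP1* and -0.23 to 1.03 for *ESRP2*, and in HCT116 from -0.48 to 0.37 for *FN1* and -0.34 to 0.18 for *ESRP2*. KO effects, HT29 minus HCT116, ranged from -0.42 to 0.27 (*ZEB1*) and -0.15 to 1.11 (*ESRP2*), HT29 minus SW480 from -0.91 to 0.52 (*VIM*) and -0.12 to 1.02 (*GRHL2*), and HCT116 minus SW480 from -0.49 to 0.26 (*SNAI1*), -1.29 to 0.46 (*SNAI2*) and -2.01 to 0.37 (*ESRP1*). *ESRP2* between HT29 and HCT116 WT cells ranged from -0.0794 to 0.38. Between clones, *FN1* ranged from -0.17 to 0.66 (HT29 WT), -0.52 to 0.0204 (HT29 KO) and -0.49 to 0.21 (HCT116 KO), *SNAI1* from -0.24 to 0.29 (HCT116 WT), -0.031 to 0.0623 (SW480 WT) and -0.0687 to 0.46 (SW480 KO), *ESRP1* from -0.0047 to 0.18 (HCT116 WT) and -0.22 to 0.85 (SW480 KO), *ZEB1* from -0.32 to 0.58 and *GRHL2* from -0.27 to 0.24 (HCT116 KO), and *VIM* from -0.0227 to 0.15 (SW480 KO).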
